A study of Mus musculus with 4 samples.

Results

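The genes of Nodal and Activin signalling were followed in RNA-seq of mouse embryonic stem cells (mESCs) that carried wild-type or O-GlcNAc-deficient CTCF. There were 9 such genes, taken by symbol from the 37620 genes of the count table, namely Nodal, Tdgf1, Acvr1b, Acvr2b, Lefty1, Lefty2, Cer1, Smad7 and Skil. All 9 were found, and 8 had enough reads to be tested. RNA came from 2 lines, with 2 libraries per line that the study describes as biological replicates.

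Both lines derive from mouse CTCF-EGFP-AID ESCs, in which the endogenous CTCF protein is tagged and is degraded when 0.5 mM auxin is added. WT_CTCF mESCs received a vector with wild-type CTCF, and MUT_CTCF mESCs received CTCF with T668A, a change that removes the threonine which carries O-GlcNAc. Auxin was given for 48 h to replace the endogenous protein. The duration used for RNA-seq is not stated separately in the sources used here. Each line was 1 picked clone, so the mutation and differences between clones cannot be told apart. Both were grown on gelatin with 15% serum and LIF at 1000 U/mL. The comparison asks whether the loss of O-GlcNAc on CTCF goes with changes in gene expression.

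Nodal is a secreted ligand of the TGF-beta family that patterns the early embryo. Nodal and the Activins bind type I and type II serine-threonine kinase receptors, which phosphorylate SMAD2 and SMAD3. These enter the nucleus with SMAD4 and act with partners such as FOXH1. The pathway raises its own ligand, Nodal, together with its own inhibitors, among them Lefty1, Lefty2 and Smad7, and so limits itself. In mESCs it is active through ligands made by the cells, and at gastrulation it drives the formation of mesoderm and endoderm.

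Total counts ran from 40524694 to 40977464 per library, and 16264 genes with enough reads were tested. For normalized counts, each library was scaled to the average one by TMM, whose factors lay between 0.994 and 1.01. The 8 mESC markers, such as Pou5f1 and Nanog, summed to 6685 to 6732 CPM (counts scaled to library size) in the 4 libraries, and at an adjusted p under 0.05 in edgeR 1 of them was higher (Sox2) and 1 lower (Dppa5a) in MUT_CTCF mESCs. DESeq2 called both (adjusted p = 0.0319 and 0.0354), and the exact test of edgeR called neither (adjusted p = 0.103 and 0.0826). Among all tested genes, 1.56% were higher and 1.61% lower at this threshold in edgeR. Of the marker lists for other cell types, Fgf5 of the formative epiblast and Lum of fibroblasts had 0 counts in every library. Other members of the same lists had many reads, such as Dnmt3b and Fn1 with 3686 and 92101 counts in WT_CTCF replicate 1. Ctcf stood at 18486 ± 259 and 19058 ± 378 normalized counts in WT_CTCF and MUT_CTCF mESCs (SD, n = 2), and these counts do not separate endogenous from exogenous transcripts. With 2 libraries per line, the smallest two-sided p of an exact permutation test is 0.333, and each p here therefore rests on the spread that edgeR estimated across genes.

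Since only uniquely mapped reads were counted, members with a close copy elsewhere in the genome lose the reads that the copy shares. Lefty1 and Lefty2 lie beside each other on chromosome 1 with starts 41914 bases apart, and each has 4 coding exons of matching length. Without gaps, their coding sequences were identical at 91.8% of 1104 bases. The first coding exon differed most, with 56 of 250 bases different, and the third least, with 5 of 246. Over all exons, 80.6% of the windows of 50 bases in Lefty1 and 84.6% of those in Lefty2 occurred once in the genome. With windows of 100 bases, the shares were 93.1% and 95.6%. Lefty2 shared 303 windows of 50 bases with Lefty1. It also shared 57 with a stretch of chromosome 1 without an annotated gene (182810219 to 182810482), and 1 to 7 with each of chromosomes 6, 9, 12 and 13. Tdgf1 has a copy with no annotated gene on chromosome 16 (3730371 to 3732656), and 75.8% of its windows of 50 bases and 93.0% of those of 100 bases occurred once. The windows of Nodal, Acvr1b, Acvr2b, Smad7 and Skil were unique at both lengths. The read length is not given in the sources used here, beyond a lower limit of 50 nt after trimming. No exon of the 9 genes overlapped that of another gene.

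On mm9, Nodal (ENSMUSG00000037171) lies on chromosome 10 at 60880720 to 60888086 on the plus strand. Tdgf1 (ENSMUSG00000032494) lies on chromosome 9 at 110842114 to 110848662 on the minus strand, and Acvr2b (ENSMUSG00000061393) on the same chromosome at 119311562 to 119342619 on the plus strand. Acvr1b (ENSMUSG00000000532) is on chromosome 15 at 101004556 to 101043032, Smad7 (ENSMUSG00000025880) on chromosome 18 at 75527183 to 75555589, and Skil (ENSMUSG00000027660) on chromosome 3 at 30993980 to 31021499, each on the plus strand. Lefty1 (ENSMUSG00000038793) spans 182865153 to 182868531 and Lefty2 (ENSMUSG00000066652) 182823239 to 182829234 of chromosome 1. Cer1 (ENSMUSG00000038192) is on chromosome 4 at 82527655 to 82531052 on the minus strand.

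The levels of the pathway genes in these cells ran from the coreceptor at the top to an inhibitor without a read. Levels between genes were compared in RPKM (reads scaled to annotated exon length and to library size). Tdgf1, which encodes the coreceptor Cripto that lets Nodal bind its receptors, was the highest, at 276.3 to 288.8 RPKM across the 4 libraries. This is above 98.9% of the tested genes. Nodal followed with 59.7 to 70.9 RPKM, above 93.8% of the tested genes. Smad7, whose product blocks the activated receptors inside the cell, had 26.9 to 29.6 RPKM. The type I receptor gene Acvr1b had 13.5 to 15.4 RPKM, and the type II receptor gene Acvr2b had 7.62 to 8.86 RPKM. The secreted inhibitor Lefty2, which binds Nodal and its coreceptor, lay between them at 10.5 to 11.5 RPKM. Lefty1 had 2.16 to 2.36 RPKM, and Skil, which encodes the SMAD repressor SnoN, had 1.93 to 2.23 RPKM. Lefty1 and Skil were the only neighbours in this order whose ranges overlapped across the libraries. The annotated exons of Acvr2b sum to 1753 bases and those of Skil to 9694 bases, and a level per length depends on these annotated lengths.

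**Figure D1:**
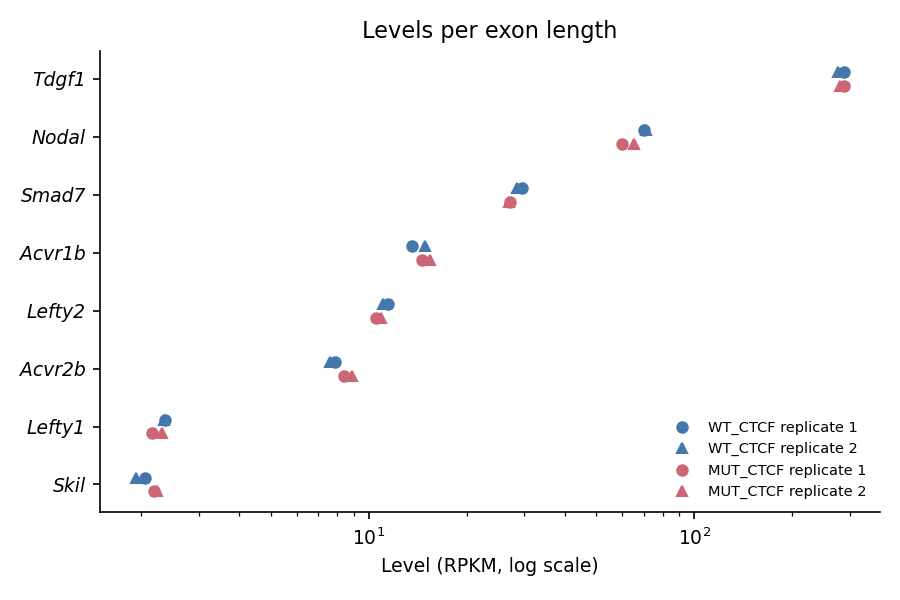
Level of each pathway gene in RPKM on a log axis, with 1 point per library (blue, WT_CTCF; red, MUT_CTCF; circles, replicate 1; triangles, replicate 2). The genes spread from about 2.10 RPKM for Skil to 283.5 RPKM for Tdgf1, and Cer1, with 0 counts, is not drawn.

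Lefty2 exceeded Lefty1 in each of the 4 libraries. The ratio of reads per exon length, Lefty2 over Lefty1, was 4.86 and 4.70 in WT_CTCF and 4.86 and 4.71 in MUT_CTCF mESCs. The ratios of both lines thus lay in the same range. Lefty1 had only 156 to 169 counts per library, and the closeness of the ratios was not tested against counting error. The factor also rests on uniquely mapped reads, and 80.6% and 84.6% of the windows of 50 bases in Lefty1 and Lefty2 were unique. Tdgf1 over Nodal was 4.12 and 3.90 in WT_CTCF and 4.83 and 4.29 in MUT_CTCF mESCs, so both MUT_CTCF ratios were the higher ones.

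Cer1 encodes Cerberus-like protein, a secreted inhibitor of Nodal made by the anterior visceral endoderm of the embryo. It had 0 counts in all 4 libraries. A count of 0 allows up to 3 counts by sampling, which is 0.0732 to 0.0740 CPM per library and at most 0.0426 RPKM. A change in Cer1 was not detectable at this depth.

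Nodal fell in MUT_CTCF mESCs, by a small amount, and was the single member that passed the test. The WT_CTCF libraries had 5987 and 6062 normalized counts, and the MUT_CTCF libraries 5106 and 5585. Both MUT_CTCF libraries lay below both WT_CTCF libraries, and MUT_CTCF replicate 1 was the lowest. In bulk samples such as these, fewer cells of a type and less RNA per cell cannot be told apart. The means were 6024 ± 53.5 and 5346 ± 338 (SD, n = 2). The log2 fold change of MUT_CTCF over WT_CTCF was -0.17 ± 0.042 (SE), which is 0.887-fold, with an adjusted p of 0.0109 by the quasi-likelihood test of edgeR. The 2 MUT_CTCF libraries differed from each other by 478.2 normalized counts. The gap between the lowest WT_CTCF and the highest MUT_CTCF library was 401.9. DESeq2 (adjusted p = 0.0354) and edgeR's exact test (adjusted p = 0.0104) also passed, and the same fit on all genes, however few their reads, did not (adjusted p = 0.295, range over its alternatives with all libraries 0.00158 to 0.295). With any 1 library left out, Nodal did not pass, and in these fits the lone library of a line is assumed to vary like the pair of the other line. At an adjusted p under 0.05, calls over all tested genes also fell in these fits. They fell without the filter too (3 lower, against 262), so not passing there is not particular to Nodal. Leaving out MUT_CTCF replicate 1 gave a log2 fold change of -0.11 (edgeR adjusted p = 0.441), and leaving out MUT_CTCF replicate 2 gave -0.24 (edgeR adjusted p = 0.219). Leaving out WT_CTCF replicate 1 gave -0.18 (edgeR adjusted p = 0.0670), and leaving out WT_CTCF replicate 2 gave -0.16 (edgeR adjusted p = 0.112).

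At an adjusted p under 0.05, 1 of the 8 genes was lower and 0 were higher, against 1.61% lower and 1.56% higher (3.17% in all) among all tested genes. DESeq2 and edgeR's exact test likewise called Nodal alone. The study called genes at a fold change above 2 with a p under 0.05 before adjustment. None of the 8 met this criterion in edgeR or in DESeq2, against 1.30% of all tested genes in edgeR (0.947% higher and 0.357% lower). With no limit on the fold, at an unadjusted p under 0.05, Nodal and Smad7 were lower (7.65% of all tested genes) and none was higher (7.61%). Every log2 fold change of the 8 lay between -0.17 and 0.15. Their median was -0.033, with 4 higher and 4 lower, and the median of all tested genes was 0.0034.

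**Figure D2:**
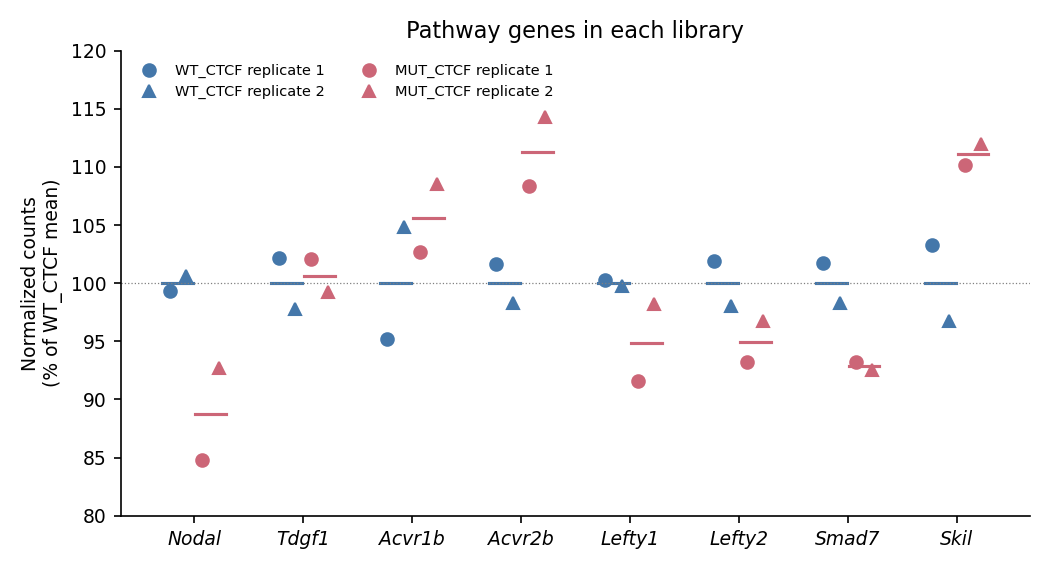
Normalized counts of the 8 tested genes in each library, as a percentage of the WT_CTCF mean of that gene (the axis does not start at 0). Short lines are the means of 2 libraries. Nodal stands at 84.8% and 92.7% in the MUT_CTCF libraries, and over all 8 genes the MUT_CTCF libraries run from 84.8% to 114.3%.

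Smad7 and both Lefty genes were each slightly lower in MUT_CTCF mESCs, and none of these differences passed. Smad7 had 5452 and 5267 normalized counts in WT_CTCF and 4997 and 4961 in MUT_CTCF mESCs. The groups did not overlap. Its log2 fold change was -0.11 ± 0.042 (SE, edgeR adjusted p = 0.186), and between -0.13 and -0.081 with 1 library left out. Lefty2 had 1222 and 1176 normalized counts in WT_CTCF and 1117 and 1160 in MUT_CTCF mESCs. Here the groups were separated by little, and the log2 fold change of -0.075 ± 0.079 (SE, edgeR adjusted p = 0.735) was smaller than its error. Lefty1, the member with the fewest reads among those tested, had 169.3 and 168.4 normalized counts in WT_CTCF and 154.7 and 165.8 in MUT_CTCF mESCs. Its log2 fold change was -0.076 ± 0.199 (SE, edgeR adjusted p = 0.915). The standard error of Lefty1 was larger than that of Lefty2.

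Skil, a repressor of SMAD-driven transcription that the pathway both degrades and induces, was on the other side. It had 813.3 and 761.8 normalized counts in WT_CTCF and 867.4 and 882.2 in MUT_CTCF mESCs, again without overlap. The difference of 0.15 ± 0.092 on the log2 scale (SE, edgeR adjusted p = 0.462) did not pass, and it ran from 0.11 to 0.20 with 1 library left out.

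The receptors were higher without passing, and the coreceptor was nearly level. Acvr2b, the gene of a type II receptor for Activin and Nodal, had 563.9 and 545.3 normalized counts in WT_CTCF and 600.8 and 634.0 in MUT_CTCF mESCs, where both values were the higher ones. Its log2 fold change was 0.15 ± 0.108 (SE, edgeR adjusted p = 0.551). Acvr1b, the gene of the type I receptor ALK4, had 1810 and 1993 normalized counts in WT_CTCF and 1953 and 2064 in MUT_CTCF mESCs, and the groups overlapped. Its log2 fold change was 0.079 ± 0.065 (SE, edgeR adjusted p = 0.632), and 0.011 without WT_CTCF replicate 1. Tdgf1 had 22685 and 21706 normalized counts in WT_CTCF and 22651 and 22026 in MUT_CTCF mESCs. The groups overlapped fully, and the log2 fold change was 0.0093 ± 0.028 (SE, edgeR adjusted p = 0.927). Its sign changed without WT_CTCF replicate 2 (-0.022) and without MUT_CTCF replicate 1 (-0.011).

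In all, 6 of the 8 genes had groups that did not overlap, 4 lower and 2 higher in MUT_CTCF mESCs. Over all tested genes, 44.6% had groups that did not overlap, 22.4% lower and 22.3% higher. A library pair can differ in this way without passing the test, as Smad7, Lefty1, Lefty2, Skil and Acvr2b did here.

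**Figure D3:**
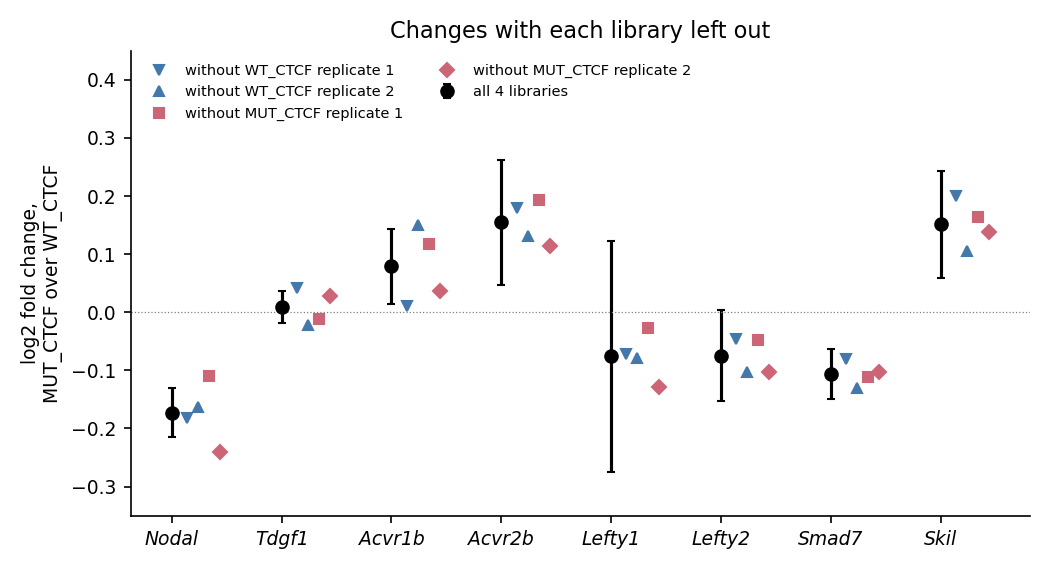
Log2 fold change of MUT_CTCF over WT_CTCF for the 8 tested genes from all 4 libraries (black, with the standard error) and with each library left out (blue, a WT_CTCF library; red, a MUT_CTCF library). Nodal stays below 0 throughout, from -0.24 to -0.11, while Tdgf1 crosses 0, from -0.022 to 0.041.

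The remaining genes of the pathway were taken from a list of 39 genes in 6 roles, of which 33 could be tested. None passed at an adjusted p under 0.05 with edgeR's quasi-likelihood test, with DESeq2 or with edgeR's exact test, and the smallest adjusted p was 0.0964 from the first of these. At an unadjusted p under 0.05, 4 were higher and 1 was lower, against 7.61% and 7.65% of all tested genes (15.3% in all), a share near this background. In 19 genes the groups did not overlap, with 11 higher and 8 lower, against 22.3% and 22.4% of all tested genes. Of the 33 genes, 17 had a positive and 16 a negative log2 fold change, and their median was 0.0064. The genes with the most reads in each role are given below, and genes outside this rule were named after their values were seen.

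Among the other ligands and processing enzymes, Pcsk6, which encodes the proprotein convertase PACE4 that cleaves the Nodal precursor, had the most reads and a log2 fold change of 0.011 ± 0.036 (SE), or -0.026 without MUT_CTCF replicate 2. The ligand gene Gdf3, a relative of Nodal, was at 58.1 RPKM, close to Nodal's own level, with a log2 fold change of -0.0084, or 0.024 without MUT_CTCF replicate 2. The Activin subunit gene Inhba had at most 1 count per library, while Inhbb stood at 791.6 ± 20.8 in WT_CTCF and 956.1 ± 96.0 in MUT_CTCF mESCs (normalized counts, SD, n = 2). The log2 fold change of Inhbb was 0.27 ± 0.092 (SE, adjusted p = 0.0964 by edgeR's quasi-likelihood test), the smallest adjusted p of the 33 genes in that test. Inha, the gene of the inhibin alpha subunit, had 8 and 5 counts in WT_CTCF and 19 and 23 in MUT_CTCF mESCs. Its log2 fold change was 1.67 ± 0.764 (SE, edgeR adjusted p = 0.281). It was the single one of the 33 genes that met the study's criterion, which 0.947% of all tested genes met as higher and 1.30% in either direction. It was not called by DESeq2, or without WT_CTCF replicate 2 or MUT_CTCF replicate 2, and with at least 10 reads in every library it was not tested. Gdf1 had 0 counts in every library, and all 1401 bases of its exons also belong to Lass1.

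None of the other receptors passed. Acvr2a, which shares exon positions with Orc4 on the other strand, Tgfbr1, Tgfbr2 and Tgfbr3 each had both MUT_CTCF libraries below both WT_CTCF libraries, with log2 fold changes from -0.20 to -0.12. Over all tested genes, 22.4% had groups apart in this direction. Tgfbr3, which encodes the accessory receptor betaglycan and had the most reads of these, stood at 1020 ± 9.37 in WT_CTCF and 920.1 ± 13.8 in MUT_CTCF mESCs (normalized counts, SD, n = 2), which is a log2 difference of -0.15 ± 0.086 (SE, edgeR adjusted p = 0.427). The log2 fold change of Tgfbr1 was -0.20 (edgeR adjusted p = 0.312), and -0.028 without WT_CTCF replicate 1. That of Acvr2a was -0.12, and -0.018 without the same library. Acvr1c and Cfc1, which encode the receptor ALK7 and the coreceptor Cryptic, had too few reads to be tested.

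The signal transducers were close to level. Smad4, the partner shared by the receptor-regulated SMADs, had the most reads of this role and a log2 fold change of 0.095 ± 0.048 (SE, edgeR adjusted p = 0.341). Smad2 (-0.047) and Smad3 (0.13) had log2 fold changes of opposite sign, and Foxh1, the DNA-binding partner of SMAD2, had -0.13 ± 0.074 (SE). Neither these nor the other 2 genes of the role passed. The intracellular inhibitors other than Smad7 and Skil had log2 fold changes from -0.070 to 0.13, with -0.029 for Tgif1, a corepressor of SMAD2, which had the most reads. Of the other extracellular inhibitors, Bambi, which encodes a pseudoreceptor, had the most reads and a log2 fold change of -0.073 ± 0.097 (SE), or 0.058 without MUT_CTCF replicate 1. It was the single one of the 4 genes of this role with a negative value, and their median was 0.21. Fstl3 (0.62 ± 0.563, SE) and Dand5 (0.31 ± 0.269, SE) had both MUT_CTCF libraries above both WT_CTCF libraries, and neither passed. Groups were apart in this direction in 22.3% of all tested genes. Fstl3 had few reads, with 19 and 21 counts in WT_CTCF and 34 and 28 in MUT_CTCF mESCs. Fstl3 shares exon positions with Prss57 on the other strand, and Dand5 shares some with Gadd45gip1 on the other strand.

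Transcription factor genes that Nodal signalling turns on in the embryo had few reads. Gsc, the gene with the most among them, stood at 312.6 ± 38.4 in WT_CTCF and 270.1 ± 28.7 in MUT_CTCF mESCs (normalized counts, SD, n = 2), which is a log2 difference of -0.21 ± 0.152 (SE, edgeR adjusted p = 0.566). Eomes and T, regulators of the primitive streak, had log2 fold changes of -0.14 and -0.066, and that of Eomes was 0.040 without WT_CTCF replicate 1. Sox17 had a log2 fold change of 0.75, or 0.34 without MUT_CTCF replicate 2, at means under 100 normalized counts per line, and did not pass. Lhx1 and Foxa2 had too few reads to be tested.

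**Figure D4:**
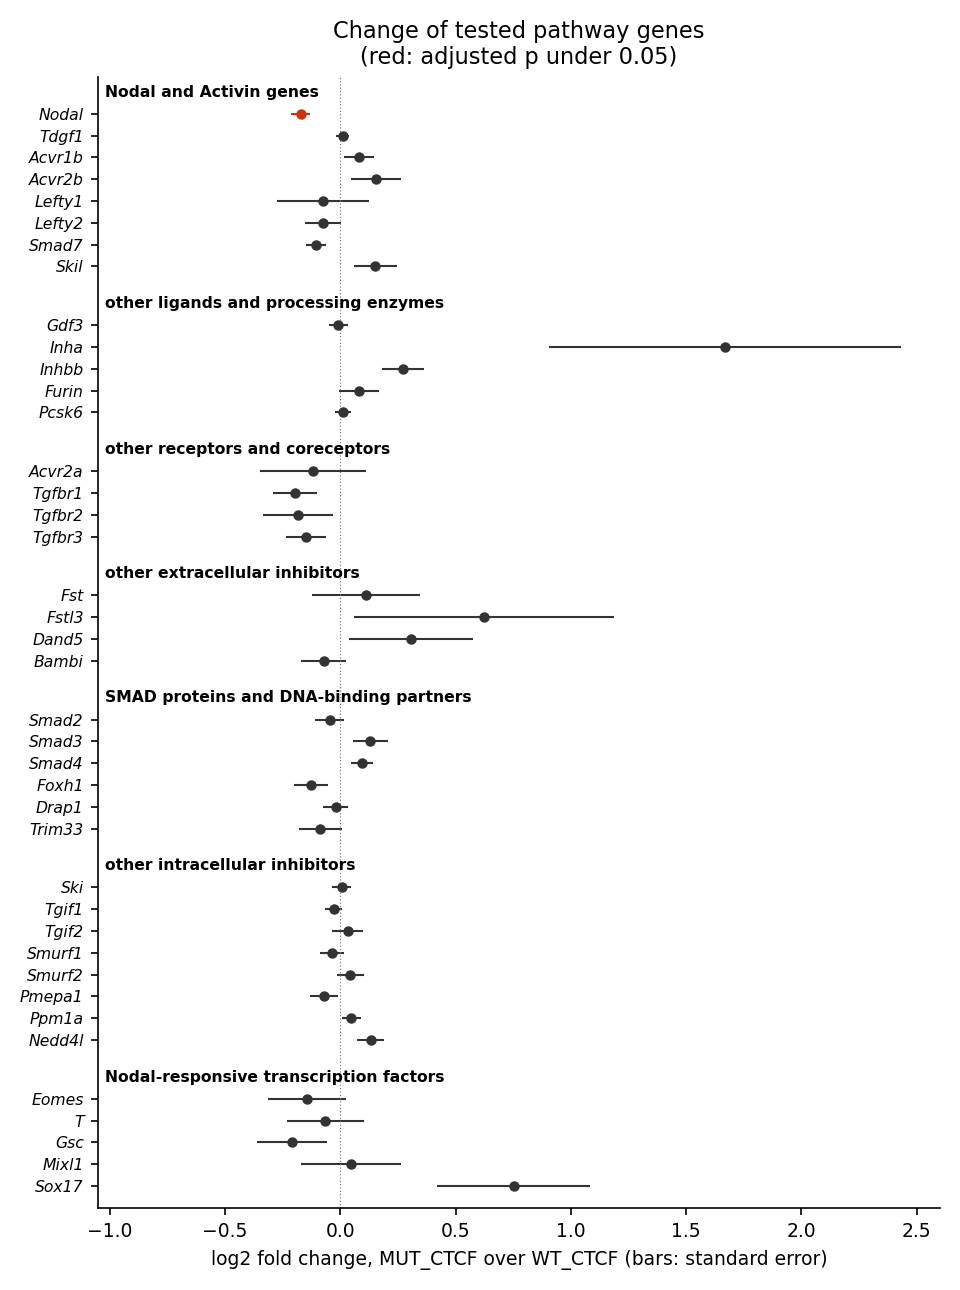
Log2 fold change of MUT_CTCF over WT_CTCF with its standard error for the 8 tested Nodal and Activin genes and 32 of the 33 other tested genes of the pathway, by role. Nodal, in red, is the single gene drawn with an adjusted p under 0.05, and the widest bar is that of Inha, which had 23 counts at most in a library.

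Markers of other cell types that such cultures could hold were summed beside the change in Nodal. The 8 primitive streak markers summed to 24.4 and 25.9 CPM in WT_CTCF and to 23.9 and 22.7 CPM in MUT_CTCF mESCs, with 5 of 7 tested markers lower and none passing. The 8 primitive endoderm markers summed to 171.8 and 178.9 CPM in WT_CTCF and to 179.9 and 183.0 CPM in MUT_CTCF mESCs, mostly from Lama1, with 5 of 6 tested markers higher and none passing. Gata6, a regulator of primitive endoderm, had the smallest adjusted p of that list (53.6 ± 4.93 and 103.3 ± 7.34 normalized counts, SD, n = 2, edgeR adjusted p = 0.0733). The 6 formative epiblast markers summed to 99.7 and 105.6 CPM in WT_CTCF and to 102.5 and 108.3 CPM in MUT_CTCF mESCs, mostly from Dnmt3b. Of the 4 tested markers, 2 were higher, namely Otx2 (log2 fold change 0.55) and Sox3 (0.46), and 2 lower, Dnmt3b (-0.0079) and Lef1 (-0.21). The 8 fibroblast markers summed to 2269 and 2359 CPM and to 2391 and 2433 CPM, nearly all from Fn1, with 3 of 5 tested markers higher. The streak list shares T, Eomes, Mixl1, Gsc and Lhx1 with the transcription factors above, and the endoderm list shares Sox17 and Foxa2. At an unadjusted p under 0.05 in edgeR, 0 streak markers, 2 endoderm markers and 2 formative markers (higher) and 1 higher and 1 lower fibroblast marker were found, against 7.61% higher and 7.65% lower among all tested genes. No marker of these 4 lists passed at an adjusted p under 0.05 in edgeR's quasi-likelihood or exact test or in DESeq2, and the part of such cells in the change of Nodal was not tested.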

How the data were processed

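RNA of WT_CTCF and MUT_CTCF mESCs was sequenced. The authors quality-trimmed reads (Trim Galore 0.4.4), aligned them to mm9 with STAR, counted uniquely mapped reads per gene with HTSeq 0.9.1 and deposited these counts without normalization (versions per the submitters' processing notes). The strand setting and the annotation release are not given in the sources used here. A deposited table of the authors' own edgeR comparison (fold changes and p-values) was not used.

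Gene names, places and exon lengths came from GENCODE M1 (NCBIM37, mm9), which named 37205 of the 37620 identifiers. Genes were filtered by edgeR's filterByExpr (minimum count 10), scaled by TMM and tested with glmQLFit and glmQLFTest (edgeR 4.0.16, R 4.3.3) with condition as the only term, and p-values were adjusted by Benjamini-Hochberg across all 16264 genes tested. A standard error is the log2 fold change divided by the root of F. The fit was tested on simulated data, only with changes larger than that of any tested member, so changes of their size were not covered. Exact windows of 50 and 100 bases were searched on both strands of the genome. As alternatives, other scalings and filters, a fold limit of 1.5, DESeq2 1.42.0, the exact test of edgeR, a replicate block and leaving out single libraries were used.

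The members and gene lists were chosen with earlier results of these data known. The genes named are the 9 members, any other pathway gene with an adjusted p under 0.05 and the gene with the most reads in each role, while further pathway genes were named after their values were seen. Where a symbol had more than 1 identifier, that with the most reads was taken. Intervals and the limit for a count of 0 cover counting error only. A few items are not reported here.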

Additional observations from a re-analysis of the deposited data

How the results depend on the processing

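Among the 8 tested genes, only Nodal had a call to lose. Lefty1 had no adjusted p in DESeq2 and was counted there as not passing. Of 88 recomputed log2 fold changes of the 8 genes, 81 kept their direction and their side of the threshold. The others were those of Nodal without a filter (-0.17, adjusted p = 0.295 from edgeR) and with each library left out (-0.24 to -0.11), a setting with fewer samples, and those of Tdgf1 with a library left out (-0.022 to 0.041, with the sign changed at -0.022 and -0.011). The count of these genes lower at an adjusted p under 0.05 was 1, and 0 without a filter and with each library left out. The 9 levels in RPKM moved by less than 1 SD with library size only.

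The other pathway genes that were higher at the study's criterion numbered 1, then 0 with at least 10 reads in every library, 0 in DESeq2, 2 at a fold limit of 1.5 and 0 to 2 with a library left out. Over all tested genes, 253 were higher and 262 lower at an adjusted p under 0.05. These were 26 and 3 without a filter, 141 and 161 in DESeq2, 6 to 142 and 0 to 102 with a library left out (the lowest without either MUT_CTCF replicate), and 152 lower with library size only. At the study's criterion, 154 were higher and 58 lower, then 82 and 35 with at least 10 reads in every library, 96 and 30 in DESeq2, 283 and 106 at a fold limit of 1.5, and 100 to 208 and 48 to 95 with a library left out. Apart from settings with fewer genes, fewer samples or another fold limit, the cause was not tested. With the replicate block, Nodal had -0.17 (adjusted p = 0.00158 from edgeR) and 326 genes were higher and 372 lower, and it changed no other call among these genes. The deviations of libraries with the same replicate number correlated at -0.019 across genes. The labels give only the number, and whether such libraries were handled together was not tested. Genes with few reads, Lefty1 and Inha among them, are limited most by depth.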
